A study of Mus musculus with 9 samples.

Results

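The 10 genes described here encode proteins of the neuronal cytoskeleton: the β-tubulins Tubb3 and Tubb2b, the microtubule-associated proteins Map2, Mapt, Map1b and Dcx, the stathmins Stmn1, Stmn2 and Stmn3, and the growth cone protein Gap43. They were chosen by name, and each was found once by its symbol among the 30406 genes listed for all libraries. The libraries came from mouse embryonic fibroblast (MEF) cultures transduced with the BAM transcription factors, which turn part of such cells into induced neurons (iNs). WT, Per1-/- and Per2-/- cultures were each sampled on days 4, 7 and 10 with 10x Genomics 3′ single-cell chemistry, 1 library per genotype and day, 9 libraries in all. All 9 cultures, WT included, carried the BAM transgenes. Per the study's methods the mutants carried the alleles Per1tm1Drw and Per2tm1Drw on a B6.129 background, the MEFs came from mid-gestation embryos whose head and heart had been removed, several embryos were pooled per dish, and day counts started at the switch to doxycycline medium. The labels name no separate embryos or cultures within a genotype, so p-values measure only the spread between these libraries, which may be technical in part.

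Microtubules are built from α- and β-tubulin dimers, and neurons use some β-tubulin genes, above all Tubb3 (βIII tubulin), that most other cells use little. Microtubule-associated proteins bind along the polymer: MAP2 is found mostly in dendrites, tau (Mapt) mostly in axons, and MAP1B and doublecortin (Dcx) in growing processes and migrating young neurons. Stathmins bind free tubulin dimers and promote depolymerisation; Stmn1 is also used by dividing cells, whereas Stmn2 and Stmn3 are neuronal. Gap43 marks growing and regenerating axons and is also made by Schwann cells. βIII tubulin and MAP2 antibodies are the usual test for iNs, so it matters which cells of such a culture hold the transcripts.

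The promoter stretches of 4 of these genes are shown because they differ widely in sequence upstream, among them Tubb3, Dcx and Stmn3, which rose in neuron-like cells, and Map2, which did not pass the test. RefSeq entries on build GRCm38.p6 were matched for 5 of the 10 genes, with 6 start sites. Each stretch runs 5′ to 3′ on the gene's strand and stops before the first base that GENCODE annotates as transcribed. Both strands were searched for 4 motifs, whose letters are in capitals and none of which overlapped another in these windows. They are the GC box GGGCGG, the box named after its letters CCAAT, and the TATA box, spelled TATAAA. The fourth is an E-box spelled CATCTG or, when read from the opposite strand, CAGATG. Tubb3 lies on the forward strand at chr8:123411303-123411423, Map2 on the forward strand at chr1:66175079-66175272, Dcx on the reverse strand at chrX:143933312-143933469 and Stmn3 on the reverse strand at chr2:181314501-181314750.
Tubb3: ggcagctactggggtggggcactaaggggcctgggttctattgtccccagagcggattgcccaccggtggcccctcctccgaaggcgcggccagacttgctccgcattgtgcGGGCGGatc
Map2: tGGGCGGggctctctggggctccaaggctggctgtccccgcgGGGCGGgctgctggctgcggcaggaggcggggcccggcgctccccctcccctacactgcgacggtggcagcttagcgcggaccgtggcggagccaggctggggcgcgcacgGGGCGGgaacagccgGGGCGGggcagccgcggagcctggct
Dcx: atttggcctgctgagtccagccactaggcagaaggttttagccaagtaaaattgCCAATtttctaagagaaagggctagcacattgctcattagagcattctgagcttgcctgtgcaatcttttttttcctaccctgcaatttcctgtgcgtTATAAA
Stmn3: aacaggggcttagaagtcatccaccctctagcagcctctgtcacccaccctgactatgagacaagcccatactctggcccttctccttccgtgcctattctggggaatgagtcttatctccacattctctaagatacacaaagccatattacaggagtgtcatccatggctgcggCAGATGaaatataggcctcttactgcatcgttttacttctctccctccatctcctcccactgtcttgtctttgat
In the whole window of 250 bases before the start, Map2 held 5 GC boxes and 81.2% G and C, and Tubb3 held 2 GC boxes, 1 CCAAT box and 68.0% G and C. The window of Dcx held a TATA box 98 bases and a CCAAT box 196 bases before the start and 41.6% G and C. Stmn3 held 1 E-box, 75 bases before the start, and 48.8% G and C. The other matched gene, Map1b, also passed as higher in neuron-like cells on day 10, and its stretch is not printed. Its window held the E-box CAGATG 213 bases, a TATA box 99 bases and a GC box 39 bases before the start, and 66.4% G and C. Among 32851 mouse promoters of the same length, 32.7% held a GC box, 33.8% a CCAAT box, 12.4% a TATA box and 14.4% the E-box CATCTG, and the median share of G and C was 52.4%. The E-box CAGCTG, found in 13.001% of promoters, and the octamer ATGCAAAT, found in 1.60%, were in none of the 6 windows. These are matches of letters and not binding sites.

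The genes lie on 9 chromosomes (GRCm38, GENCODE M21): Tubb3 at chr8:123411424-123422015, Tubb2b at chr13:34126748-34130466, Map2 at chr1:66175273-66442583, Mapt at chr11:104231390-104332090, Map1b at chr13:99421446-99516540, Dcx at chrX:143855842-143933311, Stmn1 at chr4:134468320-134473843, Stmn2 at chr3:8509360-8561606, Stmn3 at chr2:181306459-181314500 and Gap43 at chr16:42248442-42340651. Counting takes reads over whole genes, so values are per gene and not per isoform. Tubb2b is nearly identical to its neighbour Tubb2a, and its counts are uncertain to the extent that reads fit both. Map2 shares 124 exon bases with the antisense gene Gm10558, and the read-through model Gm20388 spans Tubb3 without sharing exon bases and is listed for days 4 and 7 but not for day 10.

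The libraries held 126625215 to 353198559 UMI (counted molecules), lowest in WT on day 10, where the median barcode held 3552 UMI and 55.4% of barcodes passed the limits, against 16135 to 25795 UMI and 86.1% to 94.5% elsewhere. Of 95603 barcodes, 1537 barcode sequences occurred in more than 1 library, at most 365 in any pair. After filtering, 74835 cells in 33 clusters remained. The 10 genes and the other cytoskeletal genes described here were kept out of clustering. Per1 was counted at 9.13 to 10.3 CPM (UMI of the gene scaled to the total of its cells) in Per1-/- libraries and 6.31 to 7.69 elsewhere, and Per2 at 4.98 to 6.46 in Per2-/- libraries and 2.57 to 3.16 elsewhere. The 3′ tags need not lie in the deleted part of either gene, so these values check nothing about the labels. Neuron-like cells, named from 24 neuronal markers such as Snap25, Syt1, Elavl3 and Rbfox3, numbered 9387. Values for WT, Per1-/- and Per2-/- are given in this order throughout. The 3 libraries held 2304, 2261 and 1540 neuron-like cells (day 4), 909, 301 and 778 (day 7) and 173, 336 and 785 (day 10). The label "induced neurons" of the cultures thus covers a minority of cells. The other classes were fibroblast-like (43286 cells), macrophage-like (6426), Schwann-like (2580), skeletal muscle-like (2439), astrocyte-like (1109) and mesothelial-like (458), and 9150 cells stayed unnamed.

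The levels of 9 of the 10 genes were far higher in neuron-like than in fibroblast-like cells, and Gap43 was the exception. Tubb3 stood at 909 CPM in the lowest library, 1263 in the median and 1661 in the highest among neuron-like cells, and at 6.69, 10.7 and 27.3 among fibroblast-like cells. The ranges were far apart, and within a library the ratio of neuron-like to fibroblast-like CPM was 60.8 to 231 with a median of 105. Stmn3 had the highest median ratio, 161 (72.0 to 320). After Tubb3 came Dcx with 94.3 (30.04 to 198), Mapt with 78.7 (21.4 to 160) and Stmn2 with 72.6 (10.7 to 255). These 5 had the highest median ratios to fibroblast-like cells, and the other 4 had lower ones. Against macrophage-like or skeletal muscle-like cells the order was not the same. Tubb2b, a β-tubulin of the developing brain, had a median ratio of 20.5 (13.4 to 29.0), Map1b 12.1 (8.29 to 15.03), Map2 10.6 (7.72 to 16.4) and Stmn1 10.3 (4.16 to 13.9). Neighbours in this order overlapped in their ranges over libraries. In all, 9 of the 10 genes were higher in neuron-like cells in each of the 9 libraries, against 51.8% of 11659 genes measured, and the same 9 were at least 2-fold higher in each, against 17.5%. The median log2 ratio was 5.27 for the 10 genes and 0.43 for all genes. Classes are clusters, so these ratios are descriptions without a test.

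**Figure D1:**
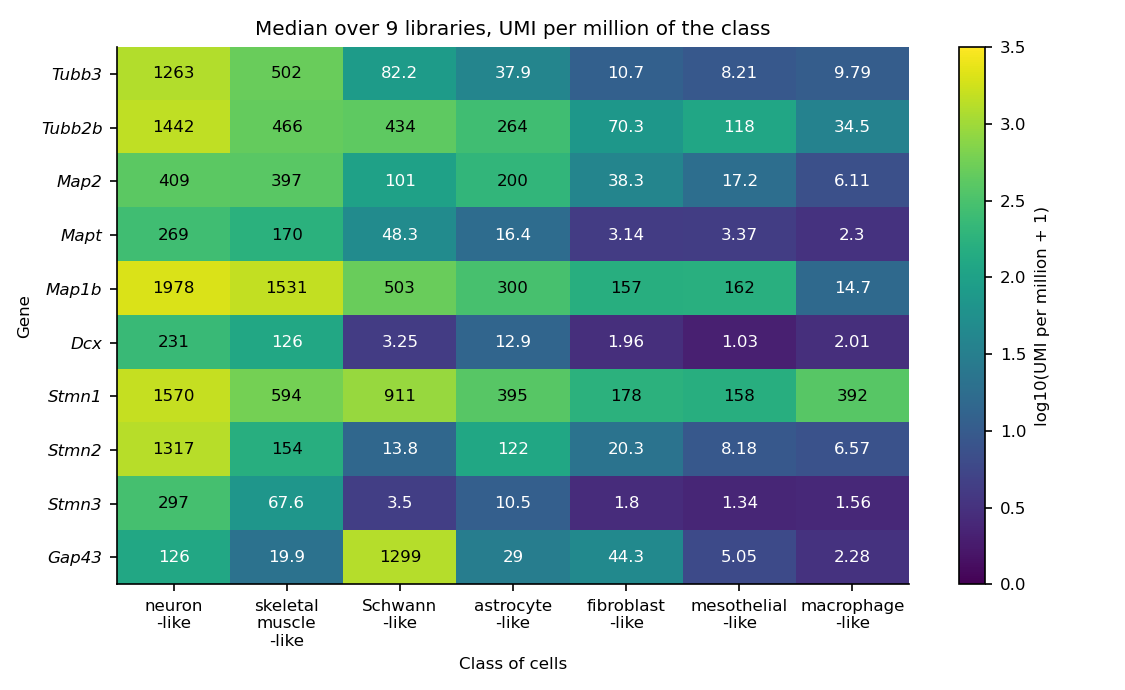
Heat map of the median level over libraries of each of the 10 genes (rows) in 7 cell classes (columns), in CPM coloured by log10(CPM + 1), with the CPM printed in each cell. Tubb3 runs from 1263 in neuron-like cells to 8.21 in mesothelial-like cells, while Gap43 is highest in Schwann-like cells at 1299.

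Gap43 was below the fibroblast-like level in neuron-like cells on day 4 and above it on days 7 and 10. Its ratio of neuron-like to fibroblast-like CPM ran from 0.12 to 15.4 with a median of 2.63, and it was higher in neuron-like cells in 6 of 9 libraries. Schwann-like cells, marked by Sox10 among other genes, held a median of 1299 CPM, and in all 9 libraries neuron-like cells were lower, at 0.0058 to 0.73 of the Schwann-like level of the same library. Neuron-like cells held 1.45% to 25.6% of all Gap43 UMI of a library, compared with 53.4% to 80.5% of Tubb3 and 62.8% to 87.2% of Stmn3. In bulk RNA, fewer cells of a class and less RNA per cell would not be told apart, and here both enter such shares.

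Skeletal muscle-like cells were the class next to neuron-like cells for most of these genes. Their median over libraries was 502 CPM for Tubb3, 397 for Map2, 1531 for Map1b, 170 for Mapt, 126 for Dcx, 154 for Stmn2 and 67.6 for Stmn3. Map2, at 409 in neuron-like cells, was higher there than in muscle-like cells in 4 of 9 libraries and lower in 5. Map1b was higher in neuron-like cells in all 9, by a ratio of 1.27 to 1.42. These cells were led by Acta1, Tnnt2 and Myh3, genes of the contractile apparatus, and carried a mean of 2.56 of the 24 neuronal markers (median 1) against 6.28 in neuron-like and 0.276 in fibroblast-like cells; the part of these marker transcripts in the muscle-like values was not tested. Macrophage-like cells, which should lack neuronal tubulin, held medians of 9.79 CPM of Tubb3, 6.11 of Map2 and 1.56 of Stmn3, but 392 of Stmn1. Astrocyte-like cells held 200 CPM of Map2 and 122 of Stmn2. For Stmn1 the Schwann-like level was the nearer one. Its ratio of neuron-like to Schwann-like CPM was 0.94 to 3.09 (median 1.86), beside a median of 2.24 to muscle-like cells.

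When each cell was thinned to 3000 UMI, 78.8% of neuron-like cells held Tubb3, 84.2% Tubb2b, 87.9% Map1b, 76.3% Stmn1, 61.6% Stmn2 and 58.2% Map2. Stmn3 was detected in 32.3%, Dcx in 29.4%, Mapt in 28.9% and Gap43 in 7.5%. These shares pool all libraries, and most neuron-like cells came from day 4. By library, Mapt was detected in 13.8%, 17.4% and 19.0% of neuron-like cells on day 4. It was detected in 42.1%, 45.2% and 53.2% on day 7 and in 68.2%, 56.0% and 60.0% on day 10. The pooled shares in macrophage-like cells were 2.7% for Tubb3, 1.6% for Map2 and 0.9% for Mapt and 43.5% for Stmn1. The first 3 are the shares in a class that should lack these genes, and the source of these UMI was not tested. Before thinning, the median depth was 12294 UMI in neuron-like cells and 22064.5 in macrophage-like cells. Cells with at least 1 Tubb3 UMI made up 26.8%, 24.8% and 21.9% of cells (day 4), 15.5%, 9.3% and 13.2% (day 7) and 16.4%, 7.9% and 16.3% (day 10). With 1 library per genotype and day these shares have no test between genotypes on a day. Of these Tubb3-positive cells, 71.0% to 76.2% (day 4), 46.7% to 62.0% (day 7) and 14.8% to 42.2% (day 10) were neuron-like. Among cells with at least 3 Tubb3 UMI after thinning the share was 88.0% to 92.3% (day 4), 74.4% to 86.7% (day 7) and 42.9%, 68.8% and 84.6% (day 10), and 0% of macrophage-like cells held as many. The lowest value at either minimum was that of WT on day 10, where 49.6% of the cells with at least 1 Tubb3 UMI lay in an unnamed cluster that was 96.4% from this library and had a median of 4367 UMI. In Per2-/- on day 10, 31.3% were fibroblast-like at a minimum of 1 UMI and 0.35% at 3. There 8.04% of fibroblast-like cells held Tubb3, and so did 7.19% of macrophage-like cells, which should lack it. The source of the Tubb3 UMI in either class was not tested. In this library Tubb3 in fibroblast-like cells (27.3 CPM) and macrophage-like cells (25.0) was also the highest of the 9.

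The genes differed in their level across cells with few or many neuronal markers. Cells of all classes were binned by how many of the 24 markers they held after thinning, and the genes of interest are none of these markers. Median CPM of Tubb3 over libraries was 13.5 in cells with 0 markers, 34.7 with 1, 179 with 2 to 3, 840 with 4 to 6, 1409 with 7 to 9 and 1588 with 10 to 24. In cells with 4 to 6 markers Tubb3 was thus at 52.9% of its level in the top bin. Map2 was at 61.3%, Map1b 53.4%, Tubb2b 44.8%, Stmn1 40.1% and Dcx 36.9%. Mapt stood at 27.3%, Stmn2 at 24.0% and Stmn3 at 22.9%. Skeletal muscle-like cells made up 8.66% of this bin and neuron-like cells 73.1%. With the muscle-like cells left out, a setting added after seeing the data, Map2 was at 49.3%, Tubb3 at 49.8%, Map1b at 52.5%, Dcx at 28.4%, Mapt at 23.6%, Stmn2 at 27.1% and Stmn3 at 21.6%, so Map2 was no longer the highest. The medians of Tubb3, Map2 and Map1b stood nearer to their top level than those of Mapt, Stmn2 and Stmn3 in both, while the SD of such a percentage over libraries was 7.13 to 18.6 points. The median of Gap43 changed little at first, at 70.9 CPM with 0 markers, 53.8 with 2 to 3 and 102 with 7 to 9, and reached 240 only in the top bin. The bins are a range of cells of several classes and days, not a course in time, and share libraries and depth, and no test was made.

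**Figure D2:**
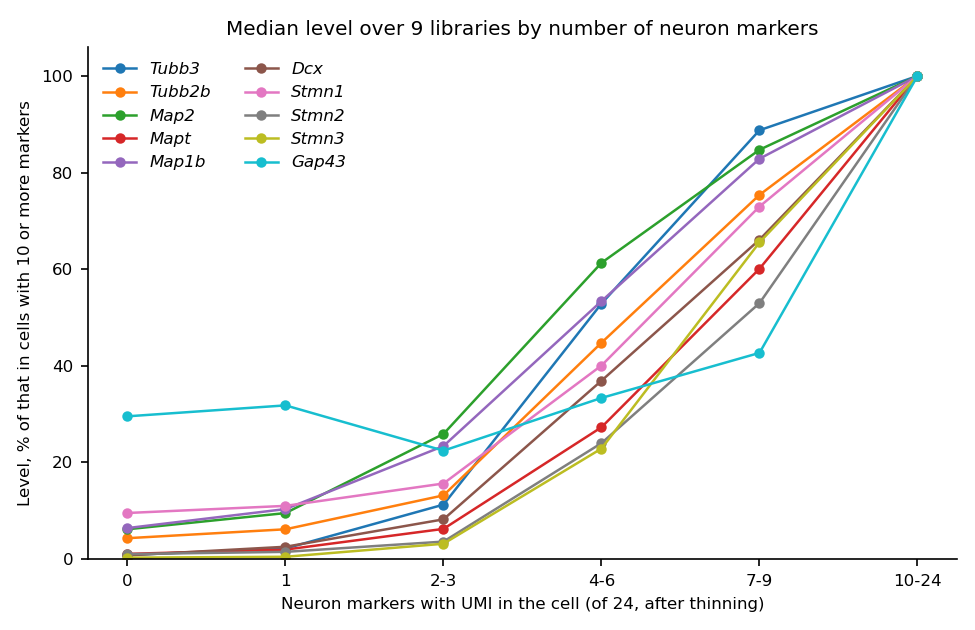
Level of each gene (lines) against the number of the 24 neuronal markers detected in a cell after thinning, as the median CPM over 9 libraries in percent of the median in cells with 10 or more markers, on a linear axis. In cells with 4 to 6 markers Map2 is at 61.3% and Stmn3 at 22.9%, and Gap43 starts at 29.6% in cells with 0 markers.

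Days were compared on sums over all neuron-like cells, with the 3 genotypes as repeats of a day. The make-up of this class changed between days, as described below, so a rise here is one of the class sums. Between day 4 and day 10, 9 of the 10 genes rose (edgeR quasi-likelihood test, Benjamini-Hochberg adjusted p under 0.05), against 21.9% of 14391 genes called higher and 21.8% called lower. The median log2 change was 0.91 for the 10 genes and -0.03 for all genes. By day 7, 7 had risen, against a background of 10.2% called higher and 8.94% lower. In order of size came Gap43, then Mapt, Stmn3 and Stmn2, then Dcx, and last the tubulins, Stmn1 and Map1b. Map2 was the one gene that did not pass on either day.

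Gap43 stood at 11.4, 11.7 and 11.3 CPM (day 4), at 126, 53.2 and 131 (day 7) and at 521, 179.9 and 319.6 (day 10). No library of a later day overlapped one of an earlier day. The log2 change was 3.05 ± 0.27 (SE) on day 7 (edgeR adjusted p = 7.1e-05) and 4.83 ± 0.28 on day 10 (adjusted p = 6.3e-07). Gap43, which is known from growing axons, was the member with the largest change on both days.

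Tau followed. Mapt went from 52.7, 71.1 and 77.2 CPM (day 4) to 269, 259.7 and 383 (day 7) and 548, 501 and 557 (day 10), again without overlap between days. Its log2 change was 2.18 ± 0.13 on day 7 (edgeR adjusted p = 8.6e-06) and 3.11 ± 0.13 on day 10 (adjusted p = 7.9e-08). Among the other microtubule-associated proteins, Dcx was at 109, 155 and 143 CPM (day 4), 265, 228 and 295 (day 7) and 294, 231 and 297 (day 10). The ranges of days 7 and 10 overlapped, and both lay above day 4. The log2 change was 0.95 ± 0.14 on day 7 (edgeR adjusted p = 0.0012) and 1.11 ± 0.14 on day 10 (adjusted p = 1.3e-04).

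Map1b, which is made early in process outgrowth, changed less. It was at 1385, 1755 and 1728 CPM (day 4), 1955, 2302 and 2364 (day 7) and 2516, 1978 and 2047 (day 10). The log2 change was 0.45 ± 0.13 on day 7 (edgeR adjusted p = 0.036) and 0.53 ± 0.13 on day 10 (adjusted p = 0.0080). The day 7 call was lost in 6 of 9 fits that left out 1 library, namely any library of days 4 or 7 (log2 change 0.34 to 0.53, adjusted p 0.054 to 0.18), and the day 10 call without WT on day 4 (0.41, adjusted p = 0.057). Map2 stood at 332, 409 and 393 CPM (day 4), 457, 472 and 524 (day 7) and 483, 373 and 317 (day 10). The day 10 libraries spanned the day 4 range, and the log2 change was 0.14 ± 0.14 (edgeR adjusted p = 0.46); without WT on day 4 it was -0.011 and without WT on day 10 it was -0.085. On day 7 it was 0.36 ± 0.14 (adjusted p = 0.10), and it passed without WT on day 10 (0.37, adjusted p = 0.011), without Per2-/- on day 10 (0.37, adjusted p = 0.048) or without the filter on low counts (0.34, adjusted p = 0.022).

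Among the stathmins, Stmn3 was at 75.3, 103.6 and 93.7 CPM (day 4), 297, 252 and 363 (day 7) and 716, 577 and 744 (day 10), and Stmn2 at 455, 675 and 724, then 1317, 1219 and 1775, then 2027, 1646 and 2431. For Stmn3 no 2 days overlapped, whereas for Stmn2 the ranges of days 7 and 10 did. On day 10 the log2 change was 2.99 ± 0.15 for Stmn3 (edgeR adjusted p = 2.4e-07) and 1.82 ± 0.15 for Stmn2 (adjusted p = 6.6e-06). Stmn1, the stathmin that dividing cells share, changed by 0.71 ± 0.10 (adjusted p = 2.2e-04), from 1022, 1290.5 and 1192 to 1615, 1829.7 and 1913 CPM.

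The β-tubulins rose least among the genes that passed without losing the call to 1 library. Tubb3 was at 909, 1105 and 1125 CPM (day 4), 1186, 1263 and 1285 (day 7) and 1449, 1543 and 1661 (day 10). Every later day lay above the earlier one. The log2 change was 0.26 ± 0.09 on day 7 (edgeR adjusted p = 0.072) and 0.67 ± 0.09 on day 10 (adjusted p = 2.3e-04). Tubb2b was at 1082, 1350.7 and 1200.3 CPM on day 4 and 1725, 1680.5 and 1747 on day 10, a log2 change of 0.61 ± 0.10 (adjusted p = 7.0e-04). Its day 7 change was 0.29 ± 0.10 (adjusted p = 0.070). Without WT on day 10, both passed on day 7 (0.26 and 0.29, adjusted p = 0.036 and 0.031), as they did in the DESeq2 Wald test (adjusted p = 0.025 and 0.024).

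**Figure D3:**
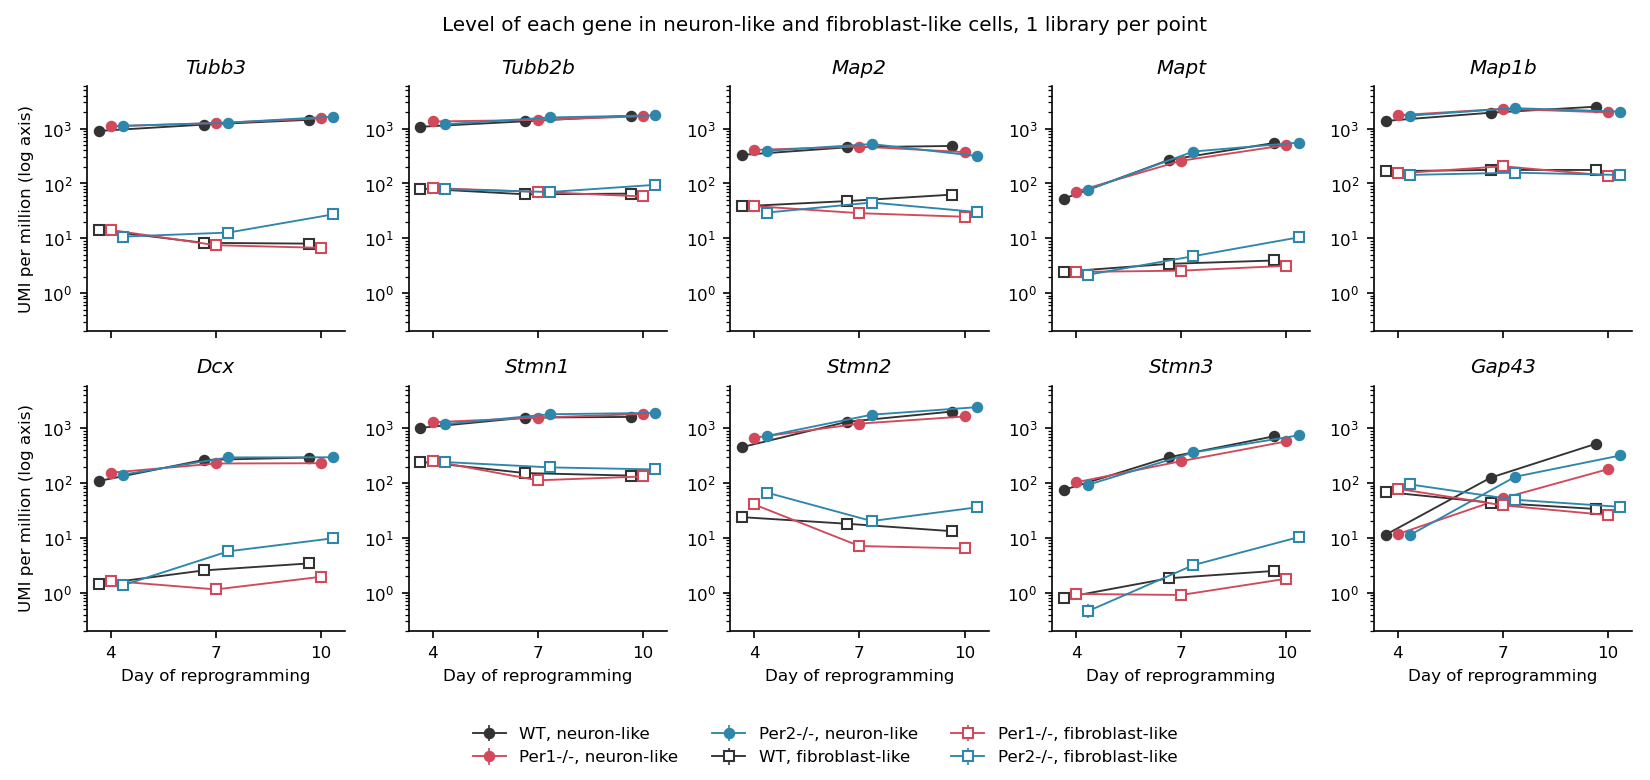
Level of each gene in neuron-like cells (filled circles) and fibroblast-like cells (open squares) on days 4, 7 and 10, 1 point per library coloured by genotype, in CPM on a logarithmic axis, with lines between the days of a genotype; points are shifted sideways, and bars, mostly hidden by the points, are 95% counting intervals. Gap43 climbs from 11.3 to 11.7 CPM on day 4 to 179.9 to 521 on day 10 in neuron-like cells and declines in fibroblast-like cells.

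These changes go with a change in which neuron-like cells were present. The class was made of 3 clusters, led by Igfbpl1, Miat and Lhx3 (cluster 6), by genes that include Pou3f2, Gcg and Pln (cluster 10) and by Snhg11, Caly, Gng3 and Syp (cluster 21). Cluster 21, led by genes of the secretory and synaptic machinery, held 0% (day 4), 0.2% to 1.8% (day 7) and 80.4% to 91.2% (day 10) of neuron-like cells. Cluster 6 held 56.9% to 67.4% on days 4 and 7 and 4.1% to 7.5% on day 10. Over all libraries Tubb3 stood at 1574 CPM in cluster 6, 475 in cluster 10 and 1687 in cluster 21, and Stmn1 at 2060, 344 and 1935. Mapt was at 174.5, 68.3 and 587, Stmn3 at 208, 72.1 and 758 and Gap43 at 35.01, 41.8 and 349 in the same order. These sums mix day with cluster, since cluster 6 comes mostly from days 4 and 7 and cluster 21 from day 10. By library, Mapt ran from 80.4 to 509 CPM in cluster 6 (8 libraries) and from 585.01 to 588 in cluster 21 (3 libraries). Libraries with few cells of a cluster were left out of these ranges.

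Inside cluster 6 alone, a comparison added after seeing the data, 3 of the 10 genes still passed on day 10, namely Mapt, Stmn3 and Gap43, against 1.32% of 13214 genes called higher and 0.84% lower. Tubb3 (-0.20, edgeR adjusted p = 0.52) and Tubb2b (-0.23, adjusted p = 0.50) turned to the other side of 0 there, and Stmn2 was at 0.00025 (adjusted p = 1.0). The day 10 sums of this cluster rest on 13, 24 and 32 cells, which held 4, 1 and 62 UMI of Gap43. For Per1-/- on day 10 this was 5.04 CPM, below the 11.3 CPM of the same genotype on day 4. In cells of this cluster from days 4 and 7, which hold 203 to 1431 cells per library, Gap43 went from 7.71, 11.3 and 13.1 CPM to 123, 55.3 and 119 and Mapt from 80.4, 99.8 and 102 to 388, 332 and 509, while Tubb3 went from 1496, 1568 and 1590 to 1638, 1586 and 1710. When neuron-like cells were chosen by holding at least 5 of the 24 markers, 5 genes passed on day 10, against 20.4% of 14709 genes called higher and 17.3% lower, and the changes of Tubb3, Tubb2b, Map1b and Stmn1 shrank to between 0.02 and 0.09. The median number of markers per neuron-like cell was 5, 6 and 6 (day 4) and 10, 9 and 10 (day 10). Day 10 was also counted with another software version and feature table than days 4 and 7, and day and feature table cannot be told apart.

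The number of these genes detected together in 1 cell was also higher on days 7 and 10 than on day 4, without a test. A median of 5 to 6 of the 10 genes was detected per neuron-like cell after thinning on day 4, 7 on day 7 and 7 to 8 on day 10. At least 8 genes were found in 8.5% to 12.5% of neuron-like cells on day 4, in 32.2% to 44.3% on day 7 and in 39.0% to 55.5% on day 10.

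Other genes of the microtubule system were read from the same fits. Of 9 further α- and β-tubulins tested, 7 rose and 2 fell in neuron-like cells by day 10 (median log2 change 1.21, beside -0.03 for all genes). The counts of each list stand beside the 21.9% of all genes called higher and 21.8% called lower in this contrast. Tubb2a rose by 2.27 ± 0.11 and Tuba1b by 1.70 ± 0.11 on the log2 scale, whereas Tubb6 (-1.70 ± 0.17) and Tuba1c (-0.93 ± 0.27) fell. Stmn4, the remaining stathmin, rose by 2.28 ± 0.10. Of 17 further microtubule-associated proteins 8 rose, led by Map7d2 (2.53) and Map6 (1.34), and 2 fell, Mtcl1 (-0.75) and Map1a (-0.35). Among 20 axonal kinesin and dynein genes, which carry cargo along microtubules, 11 rose, with Klc1 at 1.19 and Kif5a at 1.44, and Kif1c fell (-1.33). Plus-end and minus-end proteins numbered 7 higher and 1 lower of 16, with Camsap3 at 1.62, Nav1 at 0.57 and Clasp1 at -0.31. Of 12 genes listed as growth cone and collapsin response proteins 7 rose, led by Rtn1 (2.69) and Dpysl2 (1.29), and Enc1 fell (-1.003). The genes of this list are called growth cone proteins below, which is no statement on what each gene does. Among 5 neurofilament genes 4 rose, with Nefl at 2.19 and Ina at 1.10. Enzymes that modify tubulin had 6 higher, such as Ttl (0.83) and Agtpbp1 (0.49), and 2 lower of 20, Agbl3 (-0.62) and Agbl2 (-2.89). Agbl2 was of low level and is not among the genes counted as measured in the comparison of classes below. Of 7 severing enzymes 1 rose and 1 fell (Katna1, -0.37), and of 4 gamma and other tubulins 1 rose (Tubg2, 0.65) and 1 fell (Tubd1, -1.04). The shares of the last 3 lists are not far from those of all genes. Each named gene passed the edgeR test at an adjusted p under 0.05.

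The same lists were read in fibroblast-like cells, where 8.85% of all genes were called higher and 8.08% lower on day 10, and the difference between classes was not tested for the lists. Of the 9 α- and β-tubulins 1 rose (Tubb2a, 0.63 ± 0.17) and 3 fell, among them Tubb6 (-0.66 ± 0.13) and Tubb5 (-0.42 ± 0.10). Camsap3 rose by 1.88 and was the one of 16 plus-end and minus-end proteins that passed. Among 7 severing enzymes Fign rose (0.71) and Fignl1 fell (-0.84), and Kif21b (-1.11) and Dpysl4 (1.11) passed among motors and growth cone proteins (edgeR, adjusted p under 0.05). In all 2 motors rose and 2 fell of 20, 2 growth cone proteins rose and 1 fell of 12, 2 microtubule-associated proteins rose and 1 fell of 18, 1 tubulin modifying enzyme rose and 2 fell of 20, 1 of 4 gamma and other tubulins rose, and none of 5 neurofilament genes passed.

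The class pattern of most of these lists was less uniform than that of the 10 genes, as a description without a test. Of measured genes, 4 of 9 α- and β-tubulins, 8 of 15 microtubule-associated proteins, 10 of 16 plus-end and minus-end proteins, 13 of 20 kinesin and dynein genes, 10 of 12 growth cone proteins, 8 of 17 tubulin modifying enzymes, 2 of 6 severing enzymes, 1 of 4 gamma and other tubulins and 2 of 5 neurofilament genes were at least 2-fold higher in neuron-like than fibroblast-like cells in all 9 libraries, beside 17.5% of all genes. Map7d3 (median log2 ratio -3.14), Mtus1 (-3.01), Tuba1c (-2.94), Fignl1 (-2.76) and Kif1c (-2.51) were at least 2-fold lower in all libraries. Rtn1 (7.64) and Stmn4 (7.36) had the highest ratios in these lists.

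**Figure D4:**
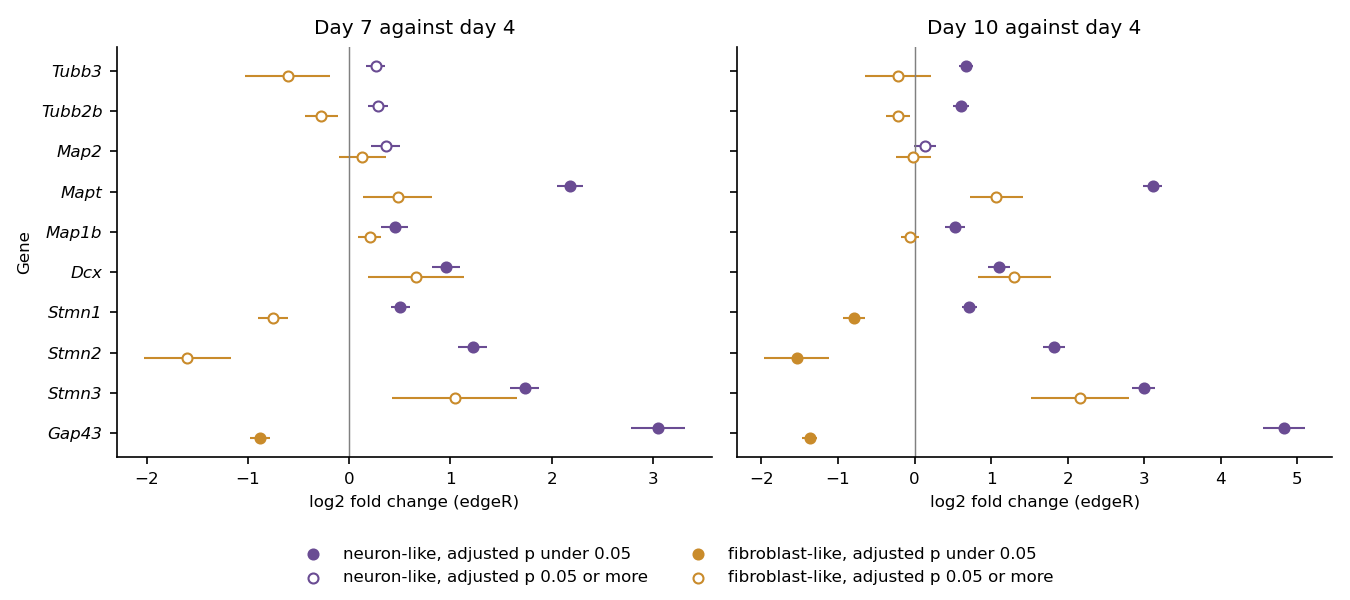
Log2 change of each gene from day 4 to day 7 (left) and from day 4 to day 10 (right) in neuron-like and fibroblast-like cells, with bars of 1 standard error from edgeR, n = 9 libraries; filled points have an adjusted p under 0.05. Gap43 has the largest rise in neuron-like cells (4.83 on day 10) and falls in fibroblast-like cells (-1.37).

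In fibroblast-like cells of the same libraries none of the 10 genes passed as higher on a later day, 1 fell by day 7 and 3 by day 10 (edgeR, adjusted p under 0.05), where 1.26% and 8.08% of 17103 genes were called lower and 0.924% and 8.85% higher. Gap43 was at 69.1, 79.1 and 94.7 CPM (day 4), 44.3, 39.4 and 49.8 (day 7) and 33.8, 26.1 and 37.0 (day 10), with no overlap between any 2 days. Its log2 change was -0.88 ± 0.10 on day 7 (adjusted p = 0.013) and -1.37 ± 0.10 on day 10 (adjusted p = 3.4e-04). The day 7 call was lost without Per2-/- on day 4 or without any one of the 3 day 7 libraries (-0.93 to -0.83, adjusted p 0.053 to 0.11).

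Stmn1 in fibroblast-like cells was at 246, 254 and 243 CPM on day 4 and at 137, 132 and 178 on day 10, a log2 change of -0.79 ± 0.15 (edgeR adjusted p = 0.014). The call was lost without WT on day 10 (-0.70, adjusted p = 0.054) or without Per1-/- on day 10 (-0.81, adjusted p = 0.055). Beside it, cycling cells, defined as holding at least 3 of 20 cell cycle genes after thinning, made up 9.71% to 12.7% of fibroblast-like cells on day 4 and 2.84% to 4.78% on days 7 and 10, and 19 of the 20 cycle genes were lower on day 10. In fibroblast-like cells that were not cycling, Stmn1 stood at 131 to 149 CPM on day 4 and 92.4 to 141 on day 10. Stmn2 was at 23.96, 40.8 and 67.4 CPM on day 4 and 13.3, 6.45 and 36.2 on day 10, with overlapping ranges, and changed by -1.54 ± 0.43 (adjusted p = 0.048). That call was lost in 6 of 9 fits without 1 library (-1.70 to -0.96, adjusted p 0.058 to 0.17), which were those without Per1-/- or Per2-/- on day 4, Per1-/- or Per2-/- on day 7, or WT or Per1-/- on day 10.

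The rest ranged from -0.22 for both Tubb3 and Tubb2b to 2.16 for Stmn3 on day 10 and did not pass. For Dcx (1.30, edgeR adjusted p = 0.10), Mapt (1.07, adjusted p = 0.076) and Stmn3 (2.16, adjusted p = 0.059), all 3 libraries of day 10 lay above all 3 of day 4. How many of all genes separate in this way was not counted. These 3 rested on low levels, with Stmn3 at 0.47 to 0.95 CPM on day 4 and 1.80 to 10.3 on day 10, and passed in the DESeq2 Wald test (adjusted p = 0.014, 0.0093 and 4.6e-04). Per2-/- on day 10 was the highest fibroblast-like library for Tubb3, Tubb2b, Mapt, Dcx and Stmn3, and it held 785 neuron-like cells, the most of the 3 day 10 libraries. The part of stray neuronal RNA in these values was not tested.

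The change from day 4 to day 10 differed between the classes for 6 of the 10 genes in the interaction test over both classes (edgeR, adjusted p under 0.05), all of them higher in neuron-like cells, where 15.3% of 17893 genes were called in this direction and 18.3% in the other. The difference (neuron-like minus fibroblast-like log2 change) was 6.18 ± 0.23 for Gap43, 3.29 ± 0.29 for Stmn2 and 1.98 ± 0.34 for Mapt. For Stmn1 it was 1.47 ± 0.10, for Tubb2b 0.80 ± 0.15 and for Map1b 0.55 ± 0.13; with cells chosen by detected markers, Tubb2b (0.21, adjusted p = 0.26) and Map1b (0.07, adjusted p = 0.62) lost the call. Tubb3 (0.85 ± 0.38, adjusted p = 0.12) and Stmn3 (0.71 ± 0.49, adjusted p = 0.32) did not pass. Both passed without Per2-/- on day 4 (1.44 and 1.46) and without Per2-/- on day 10 (1.40 and 1.36). Dcx was at -0.34 and Map2 at 0.11. For Dcx with cells chosen by detected markers, the difference was -0.99 (adjusted p = 0.035) and passed in the other direction.

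Cycling cells were compared with the other cells of the same class and library outside the neuron-like class. In fibroblast-like cells 7 of the 9 genes high enough to test were higher in cycling than in other cells and none was lower (exact two-sided sign-flip permutation test over 9 libraries, adjusted over all genes, p under 0.05), against 40.9% of 10758 genes called higher and 24.0% lower. Stmn1 was the clearest. It stood at 886 CPM in the lowest library, 1018 in the median and 1116 in the highest in cycling cells, and at 79.7, 131 and 149 in the others, without overlap. The mean log2 ratio was 3.09 ± 0.31 (SD, n = 9 libraries), higher in 9 of 9, and the exact permutation p was 0.0039, as small as 9 libraries can give (adjusted p = 0.0085).

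The neuronal genes differed by far less. Mean log2 ratios were 0.78 for Tubb3 (8 of 9 libraries), 0.69 for Tubb2b, 0.61 for Map2, 0.57 for Gap43, 0.39 for Stmn2 and 0.27 for Map1b. For Tubb3 the levels of both groups were low, at 6.83 to 30.9 CPM in cycling and 6.09 to 27.3 in other cells, and the ranges overlapped. The call for Map1b was lost without any one of 6 libraries, WT or Per1-/- on day 4, Per1-/- or Per2-/- on day 7, and Per1-/- or Per2-/- on day 10 (0.22 to 0.27, adjusted exact permutation p 0.060 to 0.062). Mapt (0.48, higher in 7 of 9) and Dcx (0.56, higher in 5 of 9) did not pass.

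In macrophage-like cells, 2 of 6 genes tested were higher in cycling cells, and none was lower, against 30.2% of 9456 genes called higher and 20.2% lower, so the share was near that of all genes. Stmn1 was at 730 to 993 CPM (median 858) in cycling and 123 to 271 (median 166) in other macrophage-like cells, a mean log2 ratio of 2.18 ± 0.44 (SD, n = 9; adjusted exact permutation p = 0.012). Map2 (0.46, adjusted exact permutation p = 0.027) lost its call without any one of 4 libraries, the 3 of day 7 and Per1-/- on day 10 (0.44 to 0.48, adjusted p 0.051 to 0.052). The other α- and β-tubulins were higher in cycling cells too, 7 of 7 tested in fibroblast-like cells (median log2 ratio 2.03) and 7 of 8 in macrophage-like cells (1.34). Both medians lay above the ratios of Tubb3 and Tubb2b.

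**Figure D5:**
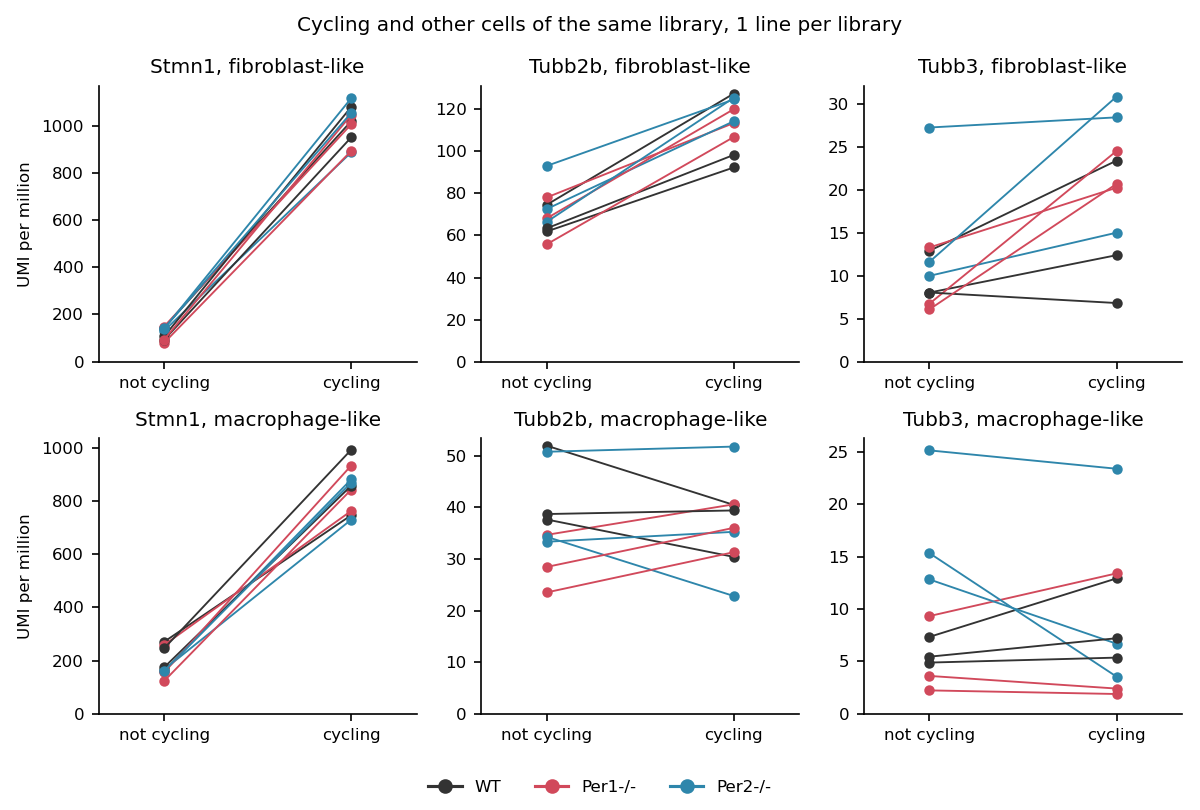
CPM of Stmn1, Tubb2b and Tubb3 in cells that were not cycling and in cycling cells of fibroblast-like (top) and macrophage-like (bottom) classes, on linear axes that start at 0 and differ between panels; each line joins both values of 1 library and is coloured by genotype. Stmn1 is higher in cycling cells in all 9 libraries of both classes, while the lines of Tubb3 in macrophage-like cells go both ways.

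Loss of Per1 or Per2 was compared with WT over the 3 days. No gene passed in either class (edgeR, adjusted p under 0.05), so 0 of the 10 genes and 0% of all genes were called in each of the 3 genotype contrasts. At an unadjusted p under 0.05 there were 597, 726 and 923 genes in neuron-like cells for Per1-/- against WT, Per2-/- against WT and Per1-/- against Per2-/-, with 1, 4 and 3 of the 10 genes among them. In fibroblast-like cells there were 1548, 1271 and 2316 genes with 1, 3 and 5. In neuron-like cells the DESeq2 Wald test called 16 genes higher and 0 lower, 13 higher and 7 lower, and 22 higher and 9 lower, and none of the 10 genes. In fibroblast-like cells it called 136 higher and 127 lower, 56 and 74, and 307 and 193, among them Dcx in Per1-/- against Per2-/- (-1.52, adjusted p = 0.017).

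Gap43 had the largest genotype difference in neuron-like cells, -0.91 ± 0.25 for Per1-/- against WT (edgeR adjusted p = 0.89) and -0.69 ± 0.25 for Per1-/- against Per2-/- (adjusted p = 0.72). On day 4 the genotypes were within 11.3 to 11.7 CPM, and Per1-/- was the lowest on day 7 (53.2 against 126 and 131) and day 10 (179.9 against 521 and 319.6). Without Per1-/- on day 4 the difference from WT was -1.34 (adjusted p = 0.010) and from Per2-/- -1.12 (adjusted p = 0.024), and both passed. The share of all genes called in this fit is not given here, so these calls are not read as particular to Gap43. Without the filter on low counts they passed as well (-0.91, adjusted p = 1.3e-07, and -0.70, adjusted p = 1.3e-04).

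Stmn2 (0.46 ± 0.14, adjusted p = 0.74) and Mapt (0.37 ± 0.12, adjusted p = 0.76) were the next in size, higher in Per2-/- than in WT neuron-like cells by edgeR without passing. Without the filter on low counts Stmn2 passed there (0.47, adjusted p = 0.014) and for Per1-/- against Per2-/- (-0.41, adjusted p = 0.038). Gap43 differed by -0.22 ± 0.24 between Per2-/- and WT. For the other genes the neuron-like differences from WT lay between -0.01 and 0.18 in Per1-/- and between -0.04 and 0.24 in Per2-/-, with standard errors of 0.09 to 0.14. Tubb3 differed by 0.16 ± 0.09 in Per1-/- and 0.22 ± 0.09 in Per2-/-. Map2 differed by -0.01 ± 0.14 and -0.04 ± 0.14. A missed threshold does not show that genotypes were alike. In simulated sums of the same size, 75.8% of genes changed 2-fold between Per1-/- and WT were recovered in neuron-like cells, and 61.0% in fibroblast-like cells. Many genes were changed at once in each simulation, which eases the adjusted threshold. The recovery of a single changed gene, where no other gene passes, may be lower and was not measured.

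Differences in fibroblast-like cells were larger for some genes of low level. For Per1-/- against Per2-/- they were -1.52 ± 0.42 for Stmn2 (edgeR adjusted p = 0.28), -1.51 ± 0.48 for Dcx (adjusted p = 0.30) and -1.31 ± 0.63 for Stmn3 (adjusted p = 0.41). Without Per1-/- on day 4, Stmn2 (-2.15, edgeR adjusted p = 0.014) and Dcx (-2.11, adjusted p = 0.019) passed in this contrast. In the same fit Map2 passed for Per1-/- against WT (-0.95, adjusted p = 0.045), beside -0.62 ± 0.23 with all libraries (adjusted p = 0.52). The share of all genes called without this library is not given here, so these calls are not read as particular to Stmn2, Dcx or Map2.

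The difference between Per1-/- and WT was also compared between classes, and 0 of 17893 genes passed (edgeR; 972 genes and 3 of the 10 at an unadjusted p under 0.05, 12 genes higher and 2 lower and none of the 10 by the DESeq2 Wald test). Without Per1-/- on day 4, Map2 (0.85) and Gap43 (-1.17) passed. Here too the share of all genes called is not given, so these calls are not read as particular to Map2 or Gap43.

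Over 57 sums of 7 classes and 9 libraries, the 10 genes also varied together unevenly. The level of Dcx was most like that of Stmn3 among the 10 (Pearson r = 0.957 of log2 CPM), and Map2 most like that of Map1b (0.939). Gap43 stood apart, with r from 0.09 with Dcx to 0.51 with Tubb2b. Among all genes the nearest to Tubb3 were Uchl1 (0.963), a neuronal ubiquitin hydrolase, and Cyth2 (0.960). Dcx was nearest to Mcf2l (0.986) and Elavl3 (0.980), an RNA-binding protein of neurons. Stmn3 was nearest to the intermediate filament gene Ina (0.979) and to Snap25 (0.978), and Gap43 to Chadl (0.908) and Gnb4 (0.898). The remaining nearest pairs were Tmem63b (0.971) and Uchl1 (0.969) for Tubb2b, Ptbp2 (0.955) and Fyn (0.955) for Map2, Camk2b (0.943) and Clvs1 (0.930) for Mapt, and Dbn1 (0.970) and Pnmal2 (0.968) for Map1b. Stmn1 was nearest to Jpt1 (0.947) and Gnb1 (0.934), and Stmn2 to Bex2 (0.960) and the motor gene Kif5c (0.959). Elavl3 and Snap25 are among the markers that named the neuron-like class. The points share libraries, depth and class, so r is a description.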

How the data were processed

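What the authors deposited for each library is a matrix of UMI counts. Its header names Cell Ranger 4.0.0 (days 4 and 7, 31053 genes listed) or 6.0.0 (day 10, 32285 genes); the submitters' processing notes name version 7.1 and build mm10. CPM were computed over the 30406 gene identifiers of both tables, which take up 99.3% to 99.9% of each library's UMI.

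The study's limits, 3000 UMI as the minimum and 20% mitochondrial UMI as the maximum, left 81999 cells, and 7164 likely doublets, ranked by the share of simulated pairs among nearest neighbours, were removed at 0.8% per 1000 barcodes. Clustering used Leiden at resolution 1 (leidenalg 0.10.2) on 2000 variable genes and 30 principal components. It left out 126 genes (those described and the other cytoskeletal lists) and, beyond these, the mitochondrial genes. Clusters were named by their markers. Counts were summed per class and library and tested with edgeR 4.0.16 (quasi-likelihood, TMM, day and genotype as factors, filterByExpr), or, between classes, with library as a block. In each fit the libraries shared 1 estimate of the spread. Cycling and other cells were compared with an exact two-sided sign-flip permutation test of log2(CPM + 1) over libraries, adjusted over all genes tested in a class rather than over the planned 20 tests. All adjusted p-values are Benjamini-Hochberg. Shares of cells were computed after thinning each cell to 3000 UMI; intervals at 95% cover counting error only. The edgeR script was tested on simulated data, where 75.8% of genes changed 2-fold and 99.0% changed 4-fold from day 4 to day 10 in neuron-like cells were recovered.

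All 10 genes were described at every class and library; from each other list up to 2 genes per direction with the smallest adjusted p were named, and for each of the 10 genes the 2 nearest in Pearson r. The genes and lists were chosen with earlier results of these data known. Alternatives were DESeq2 1.42.0, no filter on low counts, doublets kept, cells chosen by markers and Leiden resolution 2. Others were no genotype term, genotype contrasts without day 10 and leaving out each library. The largest neuron-like cluster alone, and marker bins without muscle-like cells, were added after seeing the data. Some genes are not reported here.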

Additional observations from a re-analysis of the deposited data

Results flagged for a closer look

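The following 6 genes were picked out because their change from day 4 to day 10 differed between neuron-like and fibroblast-like cells in the edgeR interaction test (18 sums, library as a block, Benjamini-Hochberg adjusted p under 0.05). The difference in log2 change, neuron-like minus fibroblast-like, was 6.18 for Gap43 (4.83 and -1.37 in the separate fits), 3.29 for Stmn2 (1.82 and -1.54), 1.98 for Mapt (3.11 and 1.07), 1.47 for Stmn1 (0.71 and -0.79), 0.80 for Tubb2b (0.61 and -0.22) and 0.55 for Map1b (0.53 and -0.06). Adjusted p ranged from 4.2e-06 for Gap43 to 0.0083 for Map1b. For Gap43 the neuron-like level was below the fibroblast-like level in all 3 libraries of day 4 and above it in all 6 of days 7 and 10. With cells chosen by detected markers, the differences of Tubb2b (0.21, adjusted p = 0.26) and Map1b (0.07, adjusted p = 0.62) no longer passed. The make-up of the neuron-like class changed between these days. Inside cluster 6 alone, of these genes only Gap43 and Mapt passed as higher on day 10, and Stmn2 and Tubb2b did not rise. That comparison was added after seeing the data, rests on few day 10 cells and covers neuron-like cells only. The part of the make-up in the differences between classes was not tested.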

How the results depend on the processing

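Samples could not be paired by replicate number, since the labels give none and each genotype and day has 1 library; the tests between classes and between cycling and other cells pair sums of the same library. Depth limits Stmn3 in fibroblast-like cells (46 UMI in the lowest library) and for WT on day 10, with 173 neuron-like cells. Planned settings other than leaving out 1 library were tallied, among them the genotype contrasts without the day 10 libraries. In them 68 counts of called genes stayed within 1.5 times the reported one and 9 did not. For single genes 211 values kept their direction and side of the threshold, 12 lost the call, 3 gained it, 1 reversed and 1 moved. The single genes tallied are those called in the main fit, a few followed by name, and the ratios between classes. Most genes called only under another setting are thus outside this tally.

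In neuron-like cells on day 10, 9 genes passed, 5 with cells chosen by markers (20.4% of all genes higher and 17.3% lower) and 3 in the largest cluster alone (1.32% and 0.84%), where Tubb3 (-0.20) and Tubb2b (-0.23) reversed; Map2, not called, was at -0.26 by markers and -0.42 in that cluster. Without the filter on low counts, 1 gene (Gap43) passed for Per1-/- against WT, 1 (Stmn2) for Per2-/- against WT and 2 (Stmn2 and Gap43) for Per1-/- against Per2-/-, against 0 each; all genes called higher or lower were 0.21% to 0.63% in these contrasts. In fibroblast-like cells the DESeq2 Wald test called 3 genes on day 7 (1 in edgeR; 3.99% of all genes higher and 4.65% lower in DESeq2), 6 on day 10 (3 in edgeR; 11.1% and 10.7%) and 1 (Dcx) for Per1-/- against Per2-/- (0 in edgeR). No filter gave 2 on day 7 (0.83% and 1.12%), and cells chosen by markers 5 on day 10 (9.51% and 7.43%). The median log2 ratio of Map2 between neuron-like and fibroblast-like cells was 3.81 with cells chosen by markers and 3.41 otherwise.

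Leaving out each library in turn, the number of genes called ranged from 6 to 10 on day 7 and 8 to 9 on day 10 in neuron-like cells, and from 0 to 1 and 1 to 4 in fibroblast-like cells. It was 0 to 1 for Per1-/- against WT in either class and for Per1-/- against Per2-/- in neuron-like cells, 0 to 2 for the latter in fibroblast-like cells, and 0 to 0 for Per2-/- against WT in both. For the difference between classes it was 6 to 8 between days and 0 to 2 between Per1-/- and WT. In the cycling comparisons it was 6 to 8 in fibroblast-like and 1 to 2 in macrophage-like cells. The ratio of the 9 genes between classes kept to 9 in each. Map2 on day 10 in neuron-like cells ranged from -0.085 (without WT on day 10) to 0.31, at -0.011 without WT on day 4. The cause of these changes was not tested. Shares of all genes called in the fits without 1 library are not given here, so their calls have no background beside them.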

Other observations

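An unnamed cluster of 2141 cells, doublets included, came to 96.4% from WT on day 10 and was led by Snhg11 and Cpne1. Its median depth was 4367 UMI, 0.379 of the median of the libraries its cells came from. In its 1847 cells without doublets Tubb3 stood at 152 CPM, Map2 at 125, Mapt at 59.3, Stmn3 at 61.5 and Gap43 at 97.9, between the fibroblast-like and neuron-like levels of WT on day 10, and 27.6% of the cells held Tubb3 after thinning. Another unnamed cluster of 3812 cells, doublets included, was led by Sv2b and Wnt4 and drew at most 17.3% of its cells from 1 library. Its 3436 cells without doublets held Tubb3 at 78.6 CPM, Map1b at 538 and Dcx at 26.7.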
